A study of Mus musculus with 8 samples.

Results

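Of the 42006 probes on the array, 248 (0.59%) gave a lower signal in Dkk4 transgenic than in wild-type mouse footpad skin at both embryonic stages studied, E15.5 and E16.5. A probe is a DNA oligonucleotide of 60 bases printed at one spot, whose brightness follows the amount of matching labelled RNA. The 248 probes were chosen by their measured sample signal. Each was well above background on all 4 wild-type arrays, and at either stage both transgenic arrays lay below both wild-type arrays by a mean of at least 0.2 log2 units. The signal used was the log2 processed intensity of Cy3, the dye of the footpad RNA, after quantile normalization, which gives all 8 arrays the same distribution. Of the 27679 probes well above background on the wild-type arrays, 0.896% met the rule. Because the transgenic minus wild-type differences chose these probes, their size is a description here and carries no test.

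The arrays covered 4 groups of C57BL/6 embryos, 2 arrays each. These were wild type at E15.5, wild type at E16.5, Dkk4 transgenic at E15.5 and Dkk4 transgenic at E16.5. The transgene is described as skin-specific, and its promoter is not given in the sources used here. Every array also carried, in Cy5, one common reference of RNA pooled from 11 cultured mouse cell lines and mixed with 129ES embryonic stem cell RNA. The labels do not say whether the replicates came from separate embryos or litters. The p-values therefore cover the spread of these samples alone, which may be technical, and 2 arrays per group limit every estimate.

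Wnt ligands bind receptors of the Frizzled and Lrp families and stabilise beta-catenin, which then acts with Lef and Tcf factors on target genes. Dkk4 is a secreted protein that blocks this signalling at the Lrp receptors. Wnt signals are needed early in the formation of skin appendages such as hair follicles, and in mouse footpads the appendages are sweat glands. By its title, the series concerns how sweat glands develop under Wnt, Eda and Shh signals. The array files pair no probe with a gene, so the members are described by identifier and sequence, and Dkk4, other Wnt genes and markers of skin cell types were not analysed here.

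Array position and genotype cannot be told apart in these data. Per the file headers, transgenic samples were at positions 1 and 2 of a slide and wild-type samples at positions 3 and 4 throughout. The E15.5 arrays shared slide 1, while at E16.5 the transgenic arrays were on slide 2 and the wild-type arrays on slide 3. At E16.5, therefore, slide, scan day and genotype cannot be told apart either. Cy3 was well above background at 67.1% to 77.2% of the probe spots per array.

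The 10 probes with the most negative mean of their 2 age-specific differences are shown first, because they carry the largest changes and because 5 of them share the 6-base word GGGTGA, written in capitals. All are given 5′ to 3′ as in the array files.
Z00022557-1: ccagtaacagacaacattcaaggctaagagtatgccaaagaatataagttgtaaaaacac
Z00061746-1: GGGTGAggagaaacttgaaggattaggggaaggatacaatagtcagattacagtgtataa
Z00059748-1: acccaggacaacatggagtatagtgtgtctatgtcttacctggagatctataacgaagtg
Z00031190-1: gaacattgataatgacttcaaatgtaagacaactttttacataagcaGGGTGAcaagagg
Z00060082-1: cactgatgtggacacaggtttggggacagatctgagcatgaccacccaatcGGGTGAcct
Z00017323-1: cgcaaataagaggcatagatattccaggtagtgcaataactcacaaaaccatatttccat
Z00054387-1: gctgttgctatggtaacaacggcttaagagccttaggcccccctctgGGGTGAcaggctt
Z00071186-1: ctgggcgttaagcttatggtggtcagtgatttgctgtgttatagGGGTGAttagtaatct
Z00029954-1: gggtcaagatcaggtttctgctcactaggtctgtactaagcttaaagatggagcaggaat
Z00029805-1: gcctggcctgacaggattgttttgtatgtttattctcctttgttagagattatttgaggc

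The probe with the largest difference was Z00022557-1. At E15.5 its normalised log2 Cy3 signal was 13.84 and 13.48 for wild type and 4.79 and 5.56 for transgenic skin. At E16.5 it was 13.43 and 13.85 for wild type and 5.69 and 5.87 for transgenic skin. The probe was thus bright on all 4 wild-type arrays and dim on all 4 transgenic arrays. Group means at E15.5 were 13.66 ± 0.26 (SD, n = 2) and 5.18 ± 0.54 (SD, n = 2), and at E16.5 they were 13.64 ± 0.30 (SD, n = 2) and 5.78 ± 0.13 (SD, n = 2). The differences of -8.49 at E15.5 and -7.86 at E16.5 correspond to signals 358-fold and 233-fold lower. On all 4 transgenic arrays it was still well above background.

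The Cy5 signal of the same spot, which the rule did not use, followed the same pattern. In wild type its processed Cy5 signal was 1320 and 1030 at E15.5, then 765 and 846 at E16.5. In transgenic skin it was 3.09 and 6.11 at E15.5 and 3.35 and 3.59 at E16.5. Cy5 was well above background on the 4 wild-type arrays and on none of the transgenic ones, although one reference was used throughout. On the quantile-normalised log2 Cy5 scale the transgenic minus wild-type difference was -7.83 (SE 0.31, limma adjusted p = 0.0102) at E15.5 and -8.09 (SE 0.31, limma adjusted p = 0.017) at E16.5. The E15.5 call was lost without any 1 of the wild-type or E16.5 transgenic arrays, with adjusted p up to 0.193. The E16.5 call was lost without either E15.5 wild-type array or either E16.5 transgenic array, with adjusted p up to 0.136. The differences stayed between -8.30 and -7.42 without any 1 array. What the reference signal has to do with the Cy3 difference of this probe was not tested.

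The next member, Z00061746-1, had normalised log2 Cy3 signals of 6.51 and 6.13 for wild type against 4.67 and 5.75 for transgenic skin at E15.5. At E16.5 the values were 6.68 and 7.44 against 4.96 and 4.95. The E15.5 difference of -1.11 compares with -2.11 at E16.5, so it was larger in size at the later stage, where the transgenic arrays were almost equal. Its Cy5 signal was between 54.7 and 99.4 on all arrays, and its log2 Cy5 difference was -0.06 (SE 0.07) at E15.5 and 0.13 (SE 0.07) at E16.5. The reference signals overlapped between genotypes at E15.5. At E16.5 they were 6.35 and 6.19 on the transgenic arrays and 6.15 and 6.12 on the wild-type arrays, apart in the opposite direction to the sample signal.

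Further GGGTGA probes in the leading set moved in the same manner. Z00031190-1 had log2 Cy3 signals of 6.86 and 6.45 for wild type and 5.62 and 5.84 for transgenic skin at E15.5. At E16.5 they were 7.55 and 7.47 against 5.65 and 5.98, a difference of -1.70 after -0.93 at E15.5. The wild-type signal was higher at E16.5 than at E15.5 while the transgenic signal stayed near its earlier level. Z00060082-1 showed 7.45 and 7.69 against 6.90 and 6.59 at E15.5, and 8.61 and 8.59 against 6.98 and 6.87 at E16.5. Z00054387-1 showed 8.15 and 8.37 against 7.67 and 7.96 at E15.5, and 9.21 and 9.72 against 7.81 and 7.78 at E16.5. For both, the groups were closest at E15.5 and the E16.5 difference was -1.67. The fifth GGGTGA probe of the leading set, Z00071186-1, differed by -0.81 at E15.5 and -1.05 at E16.5. Its wild-type signals of 7.22, 7.11, 7.24 and 7.68 lay above its transgenic signals of 5.98, 6.73, 6.35 and 6.47.

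Of the other leading probes, Z00017323-1 was the brightest of the leading set after Z00022557-1 at E15.5. Its log2 Cy3 signals were 8.27 and 9.29 for wild type against 7.24 and 8.01 for transgenic skin at E15.5, and 8.85 and 8.81 against 7.27 and 7.84 at E16.5. The lower E15.5 wild-type array lay only 0.26 above the higher transgenic array, so the E15.5 difference of -1.16 has a wide spread, whereas the E16.5 groups were 0.97 apart at their nearest. Z00059748-1 was dim, with E15.5 signals of 4.71 and 5.30 against 3.55 and 4.70. At E16.5 its signals were 6.61 and 6.45 against 4.31 and 5.07. At E15.5 the groups were 0.01 apart at their nearest, and only 2 of the 4 transgenic arrays were well above background.

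The remaining members of the leading set, Z00029954-1 and Z00029805-1, had lower Cy3 signals but sample to reference ratios that overlapped. Z00029954-1 had Cy3 differences of -1.01 and -0.85 and Cy5 differences of -1.05 (SE 0.76) at E15.5 and -1.59 (SE 0.76) at E16.5. Its processed Cy5 signal was 81.0 on one E15.5 wild-type array and 18.2 on the other, against 15.1 and 16.2 on the transgenic arrays. Z00029805-1 had Cy3 differences of -0.48 and -1.31 beside Cy5 differences of -0.10 (SE 0.05) and -0.63 (SE 0.05). Neither Cy5 difference passed the test, with limma adjusted p from 0.081 to 1 for these probes. Their loess-normalised log2 ratios of sample to reference differed by -0.03 at E15.5 for both, and by 0.01 and -0.05 at E16.5. The other members of the leading 10 had ratios that did not overlap between genotypes at either stage. Cy5 was well above background on 0 arrays for Z00031190-1 and Z00071186-1, and for Z00022557-1 on the wild-type arrays alone. At E16.5, Z00022557-1 read 46.4 and 67.3 in processed Cy3 beside 3.35 and 3.59 in Cy5 on the transgenic arrays. On the wild-type arrays it read 9840 and 11200 beside 765 and 846. The ratios hold an offset of 50 in each channel, whose part in these differences was not tested.

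Most members differed by far less than the leading ones. At E15.5 the Cy3 difference ran from -8.49 to -0.20 with a median of -0.28, and at E16.5 from -7.86 to -0.20 with a median of -0.37. The median over all 27679 probes well above background in wild type was 0.00 and -0.02. A difference of -0.5 or below was reached by 22 members at E15.5, 76 at E16.5 and 15 at both stages. A difference of -1 or below was reached by 5 at E15.5, 13 at E16.5 and 3 at both. The difference was more negative at E16.5 than at E15.5 for 173 of the 248, and whether the stages differ was not tested, since the rule used both.

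The rule's limit of -0.2 cuts through a continuum. Just inside it were Z00065688-1, with differences of -0.2437 and -0.2001 at E15.5 and E16.5, Z00047760-1 with -0.2129 and -0.2002, and Z00063319-1 with -0.2004 and -0.3914. Just outside were Z00027669-1 with -0.1997 and -0.3570, Z00072045-1 with -0.1991 and -0.2592, and Z00064773-1 with -0.1989 and -0.3995. In all, 1729 of the 27679 probes had non-overlapping, lower transgenic signals at both stages, and 1481 of them missed the limit.

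Membership also depended on how the arrays were scaled. Without scaling, the processed Cy3 signals of all 248 members were apart in the same direction at E15.5, where 52.4% of the 27679 probes were. At E16.5 only 44 were apart, beside 1.11% of the 27679. The wild-type E16.5 arrays were the dimmest, with median log2 signals over those probes of 9.92 and 9.66 against 9.99 and 10.27 on the transgenic E16.5 arrays. Scaling by the 75th percentile in place of quantiles gave 434 probes, of which 245 were members. The leading 10 members were among the 44 apart at E16.5 without scaling. Z00061746-1, for example, read 95.5 and 132 for wild type against 26.8 and 35.6 for transgenic skin. For the members outside the 44, the E16.5 separation appears only in signals relative to the rest of each array.

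Members were mostly dim. The median wild-type log2 Cy3 level was 7.33 for the 248 and 10.05 for the 27679, and 210 members (84.7%) lay below the latter value. Levels ran from 5.21 to 19.72. On the transgenic arrays, 243 members were well above background on all 4. Their GC content was close to that of the rest, with a median of 46.7% against 45.0%. In the array's columns over 42 of 85 lay 62.9% of members, against 51.0% of the 27679. The part of spot position in the result was not tested.

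The reference channel gives a measure the rule did not use, and since one reference was hybridised throughout, it holds no genotype. Over the 248 members, log2 Cy5 differences had a median of -0.09 at E15.5 and of -0.13 at E16.5, beside 0.00 and 0.01 over the 27679. They were below 0 for 79.0% of members at E15.5, against 46.7%, and for 73.0% at E16.5, against 47.8%. They were -0.2 or lower for 53 members (21.4%, against 3.57%) and 89 members (35.9%, against 8.13%). Among the 10043 probes of the 27679 at or below the upper quartile of member levels, these shares were 7.39% and 17.1%.

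At both stages the transgenic Cy5 signals lay below the wild-type ones without overlap for 60 of the 242 members tested in Cy5 (24.8%). The background was 3.57% of 27137 probes, and 4.4% of the dim ones. The opposite order was seen for 2 members, beside 3.8%. By limma on the Cy5 values, 1 member passed at each stage, Z00022557-1, where 0.00904% of 33187 probes passed at E15.5 and 0.0121% at E16.5. Without wild-type E16.5 replicate 1 the E16.5 count was 9, and with a trended robust prior it was 7. At an unadjusted p under 0.05 the counts were 28 (11.6%, against 3.14%) and 61 (25.2%, against 13.6%). The reference was thus lower too on the transgenic arrays for most members, by a smaller median than the sample signal. The part of this shift in the Cy3 differences was not tested.

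The log2 ratio sets the sample signal of each spot against its reference signal. On the loess-normalised log2 ratio, 223 members had a lower transgenic mean at E15.5, beside 54.9% of the 27679, and 218 at E16.5, beside 52.4%, with median differences of -0.11 and -0.13 beside -0.01 and -0.01. The groups were apart at both stages for 111 members, beside 6.98% of the 27679. A difference of -0.2 or lower was reached by 60 at E15.5, beside 1.41% of the 27679, and by 88 at E16.5, beside 8.38%. The whole rule was met on the ratio by 38 members, beside 0.181% of the 27679 (50 probes). The rule chose on the numerator of this ratio, so nothing is read from these counts about the rest of the array.

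The 38 members that also met the rule on the ratio were brighter, with a median wild-type log2 Cy3 level of 9.17. Their Cy3 differences had a median of -0.33 at E15.5 and of -0.42 at E16.5, and their median Cy5 difference was -0.01 and 0.03. Their reference signal was lower at both stages in 13 of 38, beside 155 of all 248 members and 22.8% of the 27679. A lower ratio of sample to reference chose these 38, which selects against a lower reference signal, so nothing is read from their Cy5 values. They were also spread over the array, with 18 of 38 in columns over 42. Among the leading 10, Z00060082-1 had the ratios 1.15 and 1.30 for wild type and 0.75 and 0.58 for transgenic skin at E15.5. At E16.5 its ratios were 1.89 and 1.92 against 0.84 and 0.76. It belongs to the 38, so its separation on either scale was fixed by that choice. Its processed Cy5 was dim, at 13.3 to 31.9. The log2 Cy5 difference of this probe was 0.60 (SE 0.26) at E15.5 and 0.29 (SE 0.26) at E16.5.

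The age comparison averaged the genotypes, so it did not use the transgenic minus wild-type differences that chose the members. It was not fully independent of the rule. The rule also required signal well above background on every wild-type array, and groups that did not overlap at either stage. The part of these conditions in the age calls was not tested. On the log2 ratio, limma called 48 of the 248 members higher at E16.5 than at E15.5 (19.4%), where 19.3% of 31626 probes were called higher. It called 24 lower (9.68%), where 22.6% were called lower. All 48 and all 24 had the same sign in wild type and in transgenic skin. A call on the mean of the genotypes favours equal signs, so nothing is read from this. The share that rose was thus close to that of all probes tested for age, and the share that fell was smaller. Those probes were not limited to ones well above background in wild type, and members were mostly dim. Age shares for probes of like brightness were not computed. The smaller share that fell is therefore a description, and nothing is read from it about the members. With each array centred on its median, 38 members were called higher and 6 lower, where 13.8% and 6.18% of all probes were. The deposited series table, with 128 of the members, gave 16 higher and 8 lower, where 13.0% and 18.7% of its probes were. The changes were modest, with a median of 0.25 among the 48 and of -0.17 among the 24, and with 1 member rising at least 2-fold and 0 falling so far. Age and slide cannot be told apart here, because each slide held 1 stage.

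Shown for the age comparison are the members with the largest rise and fall, Z00037212-1 and Z00024374-1.
Z00037212-1: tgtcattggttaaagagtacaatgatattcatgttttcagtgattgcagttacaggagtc
Z00024374-1: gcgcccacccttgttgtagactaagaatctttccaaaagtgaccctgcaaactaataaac

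Z00037212-1 had log2 ratios of 1.77 and 1.62 for wild type and 1.34 and 1.53 for transgenic skin at E15.5. At E16.5 the ratios were 2.57 and 2.78 for wild type and 2.51 and 2.67 for transgenic skin, so every E16.5 array was above every E15.5 array. The averaged change was 1.07 (SE 0.07, limma adjusted p = 4.3e-05). With Agilent's own log ratio it was 0.63, which did not pass (limma adjusted p = 0.0646). Z00049267-1 rose by 1.00 (SE 0.09, limma adjusted p = 0.000184), Z00053215-1 by 0.83 (SE 0.07) and Z00023514-1 by 0.76 (SE 0.15). The last of these did not pass with Agilent's log ratio (0.54, limma adjusted p = 0.0808) or in the series table (0.54, limma adjusted p = 0.128). Of these, Z00023514-1 also had ratios that did not overlap between genotypes, of 1.97 and 2.29 against 1.21 and 1.82 at E15.5 and 2.91 and 2.85 against 2.07 and 2.50 at E16.5.

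In the other direction, Z00024374-1 had log2 ratios of 0.94 and 0.85 for wild type and 0.65 and 0.41 for transgenic skin at E15.5. They were 0.54 and 0.50 against 0.14 and 0.33 at E16.5, an averaged change of -0.33 (SE 0.06, limma adjusted p = 0.00362). Z00066668-1 changed by -0.32 (SE 0.05), Z00044743-1 by -0.31 (SE 0.06) and Z00029432-1 by -0.27 (SE 0.05). All 4 fell in both genotypes, Z00029432-1 by 0.40 in wild type and 0.15 in transgenic skin. On Cy3 alone its averaged change was -0.15 and did not pass (limma adjusted p = 0.321 with quantile and 0.297 with 75th percentile scaling), while that of Z00066668-1 was -0.77 and that of Z00044743-1 was -0.56, both past the threshold. With Agilent's log ratio Z00066668-1 changed by -0.58, Z00044743-1 by -0.64 and Z00029432-1 by -0.56, all past the threshold.

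A search of all 6-base words in the probe sequences was made after the values were known. Of 4096 words, 326 occurred in at least 8 members, and GGGTGA had the highest share relative to the 27679 probes. It was present in 14 members (5.65%) and in 1.13% of the 27679. It was chosen after its values were seen, as the top of 326, and was therefore not tested. Its reverse complement TCACCC was in 5 members (2.02%), against 1.38%. GGGTGA was in 5 of the 10 leading members, 8 of the leading 50 (16%) and 6 of the other 198 (3.03%). Its share was thus highest among the members with the most negative mean difference. The word was picked from these members and the ranking uses the differences that chose them, so this order is a description.

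Besides the 5 shown above, the GGGTGA members among the leading 50 were these 3.
Z00057104-1: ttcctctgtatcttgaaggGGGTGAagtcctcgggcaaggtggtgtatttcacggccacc
Z00067669-1: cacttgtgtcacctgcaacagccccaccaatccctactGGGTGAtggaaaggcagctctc
Z00056963-1: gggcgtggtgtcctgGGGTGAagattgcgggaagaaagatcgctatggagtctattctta

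GGGTGA started at base 39 or later in 10 of the 14 members (71.4%). The share was 32.3% of the probes with the word among the 27679, these members included. Base 39 is also where it starts in member Z00067669-1. The cut is thus not independent of the members counted, and the shares are a description. In Z00061746-1 the word starts at base 1. The 14 members had median Cy3 differences of -0.41 at E15.5 and -0.59 at E16.5, against -0.28 and -0.36 for the other members. Of these 14, 11 were tested in Cy5, with E15.5 differences between -0.27 and 0.60 and E16.5 differences between -0.42 and 0.29. The reference was lower at both stages for 5 of the 11, so these members went both ways. Of the 38 members that met the rule on the ratio, 6 (15.8%) held the word. Probes with GGGTGA outside the 248 had median Cy3 differences of 0.00 and -0.01, the same as probes without it. The 248 low probes are left out of those medians. Among the 53 probes of the 27679 with an E16.5 difference of -1 or below, 10 (18.9%) held the word. At E15.5 a difference of -1 or below was reached by 10 of the 27679, and 1 of these held the word.

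The word in second place was GCCCCT, in 16 members (6.45%) against 1.41% of the 27679. Its reverse complement AGGGGC was in 2.42% against 1.03%. GCCCCT was in 0 of the leading 10 members and in 3 of the leading 50, and 0 members held both words. Both words were picked from these data and each is in few members, so nothing is read from the lack of shared members.

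Some members share sequence with other probes, which allows the same stretch to be read again. Members Z00039981-1 and Z00056405-1 share 55 bases and so count as 1 target.
Z00039981-1: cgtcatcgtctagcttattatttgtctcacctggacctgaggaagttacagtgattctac
Z00056405-1: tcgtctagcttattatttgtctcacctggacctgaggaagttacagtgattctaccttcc

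The log2 Cy3 signals of Z00039981-1 were 7.13 and 7.21 against 6.52 and 6.94 at E15.5 and 7.87 and 7.68 against 7.30 and 7.28 at E16.5. Those of Z00056405-1 were 7.51 and 7.39 against 6.68 and 7.04, and 8 and 7.79 against 7.51 and 7.38. The differences were -0.44 and -0.48 for the former and -0.59 and -0.45 for the latter. Both are members, so the rule had required each of them to be lower at both stages, and their likeness is a description.

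A further 10 members shared at least 20 bases with 11 probes that are not members. Of these partners, 6 were well above background in wild type. Transgenic means were lower at both stages for 5 of the 6, and by at least 0.2 at both stages for 2. For these 2, Z00034420-1 and Z00060790-1, the genotypes overlapped at E16.5. There a transgenic array read 11.09 against 11.08 on a wild-type array for the former, and 5.62 against 5.58 for the latter. The matching shares over all probes were not computed, so nothing is read from these counts. The longest shared stretch was 54 bases, between member Z00010551-1 and Z00053589-1, which was well above background on 8 of 8 arrays. This partner differed by -0.02 at E15.5 and -0.16 at E16.5, beside the member's -0.37 and -0.25. Its E15.5 signals of 14.19 and 14.30 for wild type overlapped the 14.25 and 14.19 for transgenic skin. Z00060790-1, which shares 44 bases with member Z00060785-1, differed by -0.62 and -0.34, beside the member's -0.58 and -0.41. Z00060354-1, which shares 31 bases with the same member and was well above background on 6 of 8 arrays, differed by -0.18 at E15.5 and by 0.45 at E16.5, where it was higher in transgenic skin. Of the 5 other partners, 2 were not well above background on any array.

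Of the 5 leading GGGTGA probes, 2 have such a partner, and both partners were too dim to show a genotype difference or its absence. Z00060711-1 shares 52 bases with Z00031190-1, GGGTGA included, yet was not well above background on any array, with processed Cy3 signals of 4.01 to 6.17. Z00031190-1 itself read 127 and 105 for wild type and 50.4 and 56.7 for transgenic skin at E15.5. Z00026775-1 shares 39 bases with Z00060082-1 but not the GGGTGA end, and was well above background on 1 of 8 arrays. Its signal was 65.5 on one transgenic E16.5 array and 4.50 to 13.9 on the others, against 94.8 to 356 for the member. Z00060711-1 and Z00031190-1 thus differed in brightness although they share most of their sequence, and why was not tested.
Z00060711-1: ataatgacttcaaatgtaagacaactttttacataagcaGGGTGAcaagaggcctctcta
Z00026775-1: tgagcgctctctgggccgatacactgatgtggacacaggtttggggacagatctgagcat

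No member could be placed in the genome through the files, whose probe positions are all unmapped. Set against 32851 RefSeq promoter windows of GRCm38.p6, which run from 250 bases before to 50 after a gene's start, 5 members were found whole, of 267 probes found in all. They are shown because they are the members with a location. Other places in the genome were not searched.
Z00066156-1: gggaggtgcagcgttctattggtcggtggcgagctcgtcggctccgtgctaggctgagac
Z00062176-1: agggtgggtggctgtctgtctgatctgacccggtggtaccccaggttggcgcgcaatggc
Z00043478-1: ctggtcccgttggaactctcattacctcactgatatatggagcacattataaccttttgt
Z00063361-1: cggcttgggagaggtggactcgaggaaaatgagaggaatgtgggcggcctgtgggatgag
Z00075762-1: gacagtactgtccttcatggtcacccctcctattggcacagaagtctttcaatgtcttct

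Z00066156-1 lies at chr12:21417577-21417636 and begins 200 bases before the start of Ywhaq, on the strand of that gene. Ywhaq encodes a 14-3-3 adaptor protein. Its processed Cy3 signal was 29.8 and 28.2 for wild type against 17.7 and 18.3 for transgenic skin at E15.5, and 45.3 and 49.8 against 20.4 and 32.2 at E16.5. The groups did not overlap, but the signal was dim and only 1 of 4 transgenic arrays was well above background. Cy5 differed by 0.04 (SE 0.29) at E15.5 and -0.95 (SE 0.29) at E16.5.

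Z00062176-1 lies at chr5:110387232-110387291, before the start of Fbrsl1 and on the opposite strand. It was the brightest of the 5, with processed Cy3 signals of 1310 and 1470 against 1070 and 1130 at E15.5 and 1520 and 1400 against 1020 and 1250 at E16.5. Its normalised log2 differences were -0.21 and -0.72. Z00043478-1 lies at chr16:3908830-3908889 between divergent starts, on the strand of 1700037C18Rik and Gm41410 and opposite to Cluap1, with differences of -0.44 and -0.48. Cluap1 encodes a protein of intraflagellar transport in cilia.

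Z00063361-1 lies at chr9:13748969-13749028, on the strand of Gm39291 and opposite to Mtmr2, a phosphoinositide phosphatase gene, with differences of -0.39 and -0.22. Z00075762-1 lies at chr7:14562163-14562222 on the strand of Vmn1r90, a vomeronasal receptor gene. It begins 51 bases before the start of that gene and differed by -0.26 and -0.51. Z00075762-1 is 60 bases long, so it runs across the start of Vmn1r90, while the other places lie before annotated starts. The probes are not shown to read the genes named. With a miRNA hairpin, 0 members shared 20 bases.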

How the data were processed

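Footpad RNA (Cy3) of 4 groups of 2 arrays was hybridised with a common reference (Cy5), with no dye swap, per the labels' protocols. The deposited scanner files hold spot intensity values of both channels from Agilent Feature Extraction 9.5.1.1, per the file headers, with processed signals and Agilent's log10 ratio beside them. The deposited series table (25030 probes) follows log10 of the Cy3 signal (correlation 0.9941 to 0.9969 per array, column medians 2.569 to 2.575). Its centring is not given in the sources used here.

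The rule was applied to log2 Cy3 processed intensity, quantile-normalised, and the probe it names for removal had not met it. Members and lists were chosen with earlier results of these data known. Log2 ratios used normexp (offset 50) and loess, with 69 outlier spots left out. limma 3.58.1 (R 4.3.3) fitted 4 group means over all probes passing a filter on dim signals (31627 by ratio, of which 31626 had every group for the age change, and 33187 by Cy5). Tests were two-sided with Benjamini-Hochberg adjustment and a threshold of 0.05, and the script was tested on simulated data. Named members are the 10 most negative, the 3 inside and the 3 outside the limit, and 4 rising and 4 falling with age. Members with the word GGGTGA, overlapping probes and promoter matches were named after their values were seen.

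The gene and systematic name fields equalled the probe name for all 42006 probes, and 0 identifiers were in the RefSeq table (GRCm38.p6). Header build mm7 has no mapped positions. Pathway and marker lists and the planned protein matching were therefore not used here. Replicate numbers did not pair arrays (correlation of deviations -0.1 to 0.11).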

Additional observations from a re-analysis of the deposited data

How the results depend on the processing

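The count of probes meeting the rule moved with each choice made in it. It was 81 at a limit of -0.3 and 839 at -0.1, 434 with 75th percentile scaling, 59 on the normexp-corrected Cy3 mean signal, 50 on the log2 ratio and 410 with no condition on background. Leaving out single arrays gave 265 to 548, with 174 to 232 of the members kept. The share of members holding GGGTGA, an alternative chosen after seeing the data, was 2.15% to 14% over these settings and 3.1% to 8.23% without single arrays. For age, 48 members were called higher and 24 lower. The series table, which holds 128 of the members, gave 16 and 8, and centring on the median rather than loess gave 38 and 6. The other settings gave 34 to 53 higher and 19 to 31 lower, and leaving out single arrays gave 40 to 54 and 16 to 22. Of the 8 members named for age, each kept its direction in every setting run. Z00037212-1 lost its call with Agilent's log ratio, Z00023514-1 with that and the series table, and Z00029432-1 on Cy3 alone.

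In the reference channel, the replicate block called 0 members at E15.5 and 0 at E16.5 by limma (33 and 72 at an unadjusted p under 0.05), and for age it called 52 higher and 25 lower. A trended robust prior called 7 at E16.5. Leaving out single arrays gave 0 to 1 at E15.5 and 0 to 9 at E16.5, the 9 without wild-type E16.5 replicate 1. Z00022557-1 lost its call with the block (adjusted p = 0.0642 at E15.5 and 0.0552 at E16.5). Where settings changed a call, the cause was not tested. The planned tests of transgenic against wild type over all probes, meant for pathway genes, were not run, since no gene could be named. Signal over background limits the dim members most.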

Other observations

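The mirrored rule, which asks for higher transgenic signals at both ages among probes well above background on all transgenic arrays, was met by 1005 of 29768 probes (3.38%). At E15.5 their Cy3 differences had a median of 0.30 and reached 1.70, and at E16.5 a median of 0.48, reaching 5.48. These values chose the probes and carry no test. Their wild-type level had a median of 7.82. Their Cy5 difference was above 0 for 70.7% at E15.5 and 75.9% at E16.5, with medians of 0.03 and 0.08. GGGTGA was in 4 of the 1005 (0.398%). Their share in array columns over 42 was 46.8%.

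At E16.5 alone, 53 probes well above background in wild type had a Cy3 difference of -1 or below, and 10 of them (18.9%) held GGGTGA. Of the 40 that were not among the 248, 4 held it. At E15.5, 10 probes well above background in wild type had a difference of -1 or below, and 1 held GGGTGA. The probes at either stage were chosen by their difference, so these counts are a description.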
